A study of Homo sapiens with 36 samples.

Results

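The response of HEK293T cells to hydrogen peroxide was measured in a line whose only complementing TXNL1 was the redox-dead SxxS variant. The comparison sets 3 libraries of treated cells against 3 libraries of untreated cells, 6 of the 36 libraries in the series, chosen by the line, treatment and replicate given in the sample labels. HEK293T is a human embryonic kidney line that carries the large T antigen of SV40. In every group of the series the endogenous *TXNL1* gene had been knocked out, and the 4 lines then were made by returning an empty vector, or TXNL1 in its WT, D162R R234D or SxxS form. The SxxS line was left untreated (labelled as given DMSO, a solvent), exposed to 600 µM hydrogen peroxide or exposed to 100 µM arsenite. Both exposures lasted 6 h, with doses and time taken from the methods of the study. By those methods, knockout cells came from sorted single cells grown as clones, TXNL1 was returned stably by a lentivirus, and the expression vectors described there use a CMV promoter. The replicates are called triplicates, and whether they were separate cultures on separate days is not stated, so p-values measure the spread between these libraries. In bulk RNA, fewer cells of a kind and less RNA per cell cannot be told apart.

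TXNL1 is a thioredoxin-like protein that binds the regulatory particle of the proteasome, the protease that degrades most cellular proteins. Its thioredoxin domain has a pair of catalytic cysteines, which the SxxS variant replaces with serines, whereas the D162R R234D variant is the one deficient in proteasome binding. Hydrogen peroxide oxidizes cysteines and damages DNA. Cells remove it with peroxiredoxins, glutathione peroxidases and catalase, and known transcriptional answers to oxidants include NRF2 targets, p53 targets, ATF4 targets and a delay of the cell cycle.

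Each of the 6 libraries held between 52797705 and 101279754 read counts on genes, with a median of 67262970. Levels are given as CPM, each gene's counts relative to a common library size after edgeR's TMM scaling, and they are not corrected for gene length, so they are compared between samples and not between genes. Across 15604 genes, the SD of a library's log2 CPM around the median of its group was 0.10 to 0.12 in the 6 libraries. It was 0.62 in WT hydrogen peroxide replicate 2 and 0.55 in WT arsenite replicate 1, against at most 0.19 in all other libraries. Both WT libraries enter the shared estimate of the spread, so the main counts are also given without them. *VIM*, which encodes the intermediate filament vimentin, had 463 to 537 CPM on unscaled library sizes in the 6 libraries, and *CDH2*, which encodes N-cadherin, had 65.2 to 68.7, both expressed in this line. The T-cell gene *CD3E* was at 0 counts, and *PECAM1*, an endothelial gene, reached at most 2 counts. Of the fibroblast genes, *COL3A1* had 12.1 to 17.0 CPM. The 4 lists of HEK293T lineage, fibroblast, blood and endothelial markers held 12, 7, 2 and 3 tested genes, and edgeR's quasi-likelihood test called 0 in each. At an unadjusted p under 0.05 the lineage list had 2 and the other lists 0, and DESeq2's test called 0 in each. The fit that left out both outlying WT libraries called 1 lineage marker higher and 0 genes of the other lists.

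*TXNL1* (GRCh38 chromosome 18, 56597209 to 56651600, on the minus strand) comes first, as the gene the lines differ in. The untreated SxxS libraries had 55.0, 53.6 and 51.7 CPM and the peroxide libraries 58.4, 63.0 and 63.2 CPM. All treated libraries lay above all untreated ones, but the log2 fold change of 0.20 (SE 0.06) did not pass the threshold, with an edgeR adjusted p of 0.0848. It passed with DESeq2's test, with only the 6 libraries in the fit and without both outlying WT libraries. In D162R R234D cells the log2 fold change of *TXNL1* after peroxide was 0.32, which was called (edgeR adjusted p = 0.00170). In vector and WT cells it was 0.04 and 0.03, neither called. Vector cells, which show the level left after the knockout, had 31.7, 31.6 and 28.6 CPM untreated and 31.2, 30.8 and 32.2 CPM after peroxide. Every SxxS library lay above every vector library. The log2 difference between SxxS and vector cells was 0.80 in untreated cells and 0.97 under peroxide, with edgeR adjusted p-values of 8.23e-10 and 7.42e-12. The table counts reads per gene and does not separate transcripts of the edited locus from those of the construct. Between these lines, 4 of the 22486 tested genes (0.0178%) differed untreated and 10 (0.0445%) under peroxide.

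Peroxide changed few transcripts, and most of these by small folds. Of 22486 tested genes, 229 (1.02%) were called by edgeR's quasi-likelihood test (Benjamini-Hochberg adjusted p under 0.05), 92 higher (0.409%) and 137 lower (0.609%). The median absolute log2 fold change was 0.40 among the rises and 0.51 among the falls, and 24 of the 229 reached 1. In all 229, no treated library lay within the range of the untreated ones. Over all tested genes, the treated libraries were all above the untreated ones in 12.5% and all below in 12.1%. The median log2 fold change of all tested genes was 0.00. Without both outlying WT libraries 1475 genes were called (653 higher, 822 lower), all 229 among them, and with only the 6 libraries in the fit 1621 were called. Leaving out 1 of the 6 libraries gave 82 to 175 calls, with the lowest number without SxxS hydrogen peroxide replicate 3.

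**Figure D1:**
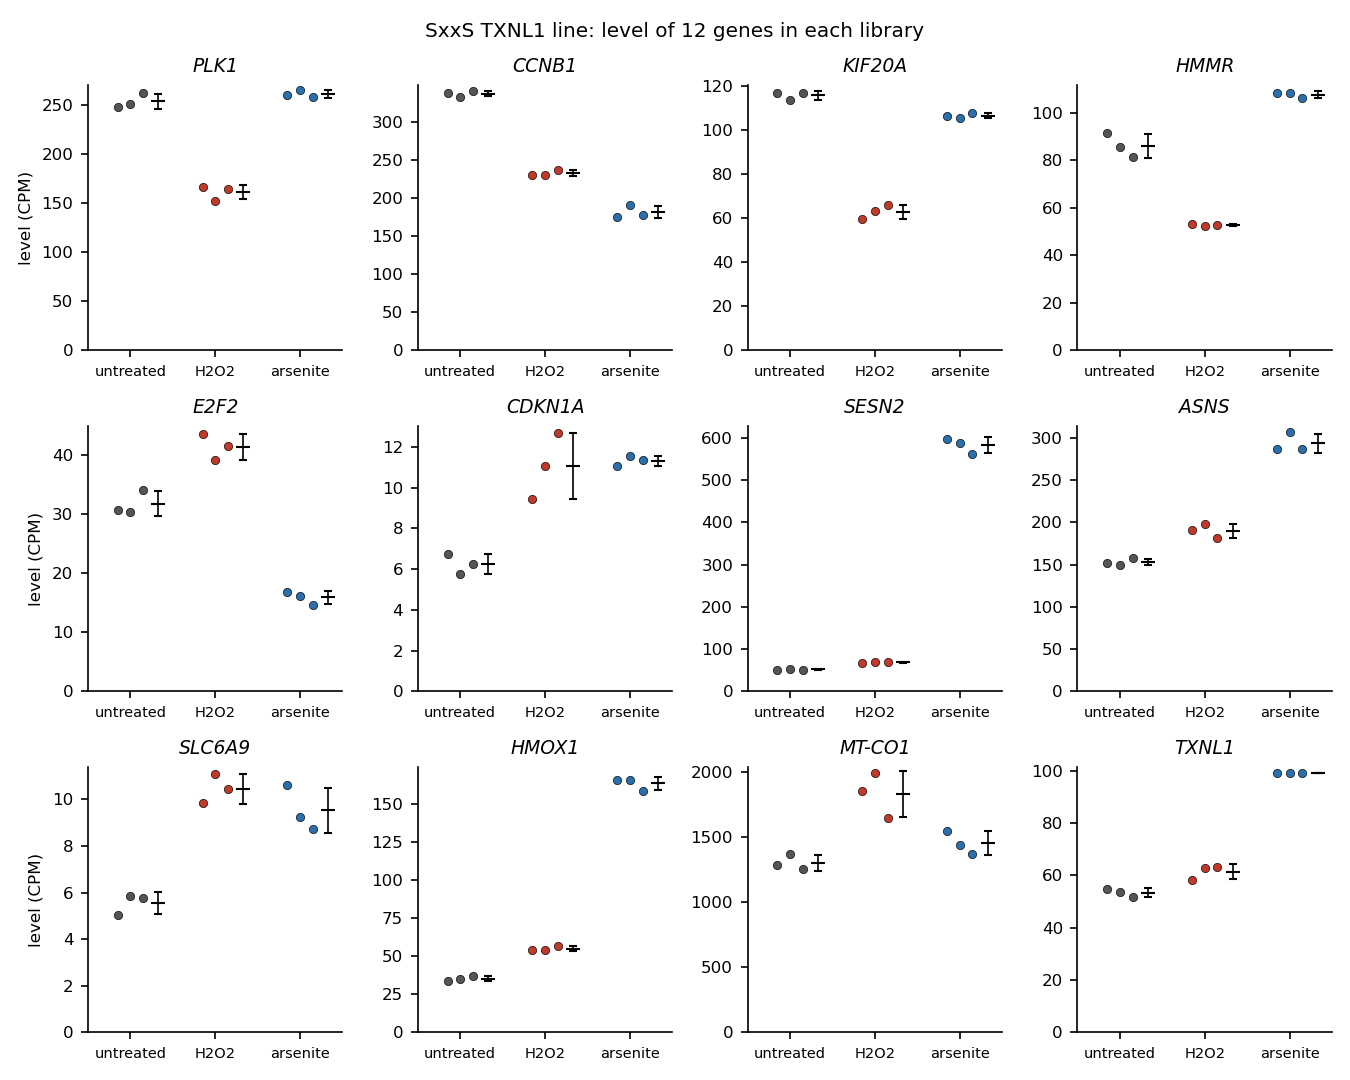
Level in CPM (linear axis from 0) of 12 genes in each SxxS library, untreated (grey), after hydrogen peroxide (red) and after arsenite (blue), with the mean and SD of 3 libraries at the right of each group. *PLK1*, *CCNB1*, *KIF20A* and *HMMR* were lower in all 3 peroxide libraries than in all 3 untreated ones, and the other 8 genes were higher.

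Genes of G2 and mitosis formed the clearest group. Of 40 such genes tested, 18 fell and 0 rose, against 0.609% of all tested genes called lower. The median log2 fold change was -0.31, with 39 of the 40 values below 0, and in 38 of the 40 all peroxide libraries lay below all untreated ones. The summed level of the 40 genes went from 5527 to 5584 CPM in the untreated libraries to 4357 to 4400 CPM after peroxide. The falls numbered 36 of 40 without both outlying WT libraries. At an unadjusted p under 0.05, which 4.55% of all tested genes passed higher and 5.27% lower, 0 members were higher and 26 lower, and DESeq2's test called 0 higher and 20 lower.

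*PLK1* encodes the polo-like kinase that drives entry into and passage through mitosis. It had 248, 251 and 262 CPM in untreated libraries and 167, 153 and 165 CPM after peroxide. The groups were far apart relative to their spread, with a log2 fold change of -0.65 (SE 0.05, edgeR adjusted p = 2.79e-09). *CCNB1*, which encodes cyclin B1, the partner of CDK1 at mitotic entry, had 337, 333 and 340.0 CPM untreated and 231, 229.9 and 237 CPM treated. Its log2 fold change was -0.53 (SE 0.05, edgeR adjusted p = 5.60e-08). *AURKA*, a kinase of the spindle poles, had 126, 134 and 136 CPM untreated against 91.9, 92.0 and 95.4 CPM, a log2 fold change of -0.51 (edgeR adjusted p = 7.14e-08). *HMMR*, whose product binds hyaluronan and spindle microtubules, had 91.4, 85.6 and 81.5 CPM untreated and 53.2, 52.3 and 52.7 CPM treated, and its 3 treated libraries were nearly equal. The log2 fold change was -0.71 (SE 0.08, edgeR adjusted p = 1.56e-06).

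*KIF20A*, a kinesin of late mitosis and cytokinesis, was the largest fall among well-expressed genes of the group. It had 117, 114 and 117 CPM untreated and 59.7, 63.1 and 65.9 CPM treated, well below every untreated library. The log2 fold change was -0.88 (SE 0.10, edgeR adjusted p = 2.10e-06). *PIF1*, a DNA helicase expressed late in the cycle, was low, with 2.94, 2.32 and 1.94 CPM untreated and 1.02, 1.22 and 0.759 CPM treated, and had the largest fold of the list, -1.30 (SE 0.23, edgeR adjusted p = 0.00249). Its adjusted p was 0.0547 without SxxS hydrogen peroxide replicate 3. *HMMR-AS1*, a noncoding RNA antisense to *HMMR* whose exons overlap it, had a log2 fold change of -0.83 (edgeR adjusted p = 0.000270), and reads of the pair can be confused where counting ignores strand. The calls of *PLK1*, *CCNB1*, *AURKA*, *HMMR*, *KIF20A* and *HMMR-AS1* held in every alternative run for them. *CDK1*, the kinase that cyclin B1 activates, was named after its values were seen as it was the single member above 0, at 117, 115 and 118 CPM untreated and 115, 122 and 120.2 CPM treated.

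The promoters of genes expressed in G2 and M often hold a CHR element (TTTGAA) and CCAAT boxes (CCAAT), and 3 promoters of this group are shown so that these letters stand beside the falls they belong to. Both motifs were searched on both strands in RefSeq windows of 250 bases before to 50 after the transcript start on GRCh38.p14. Of the 18 members that fell, 16 had a window in the table. Of these 16 windows, 10 (62.5%) held TTTGAA and 14 (87.5%) held CCAAT, with both motifs in 10. Of the 22 members that were not called, 18 had windows, and of their 28 windows 16 (57.1%) held TTTGAA, 20 (71.4%) held CCAAT and 13 (46.4%) held both. Among all 35116 windows of the table, 15.2% held TTTGAA, 34.6% held CCAAT and 5.90% held both. A match is a description of the letters. The 250 bases before the start are printed 5′ to 3′ on the gene's strand, with matches to either motif, on either strand, in capitals. The windows lie on the plus strand at chr16:23678639-23678888 (*PLK1*), chr5:163460382-163460631 (*HMMR*) and chr5:138178862-138179111 (*KIF20A*).
PLK1: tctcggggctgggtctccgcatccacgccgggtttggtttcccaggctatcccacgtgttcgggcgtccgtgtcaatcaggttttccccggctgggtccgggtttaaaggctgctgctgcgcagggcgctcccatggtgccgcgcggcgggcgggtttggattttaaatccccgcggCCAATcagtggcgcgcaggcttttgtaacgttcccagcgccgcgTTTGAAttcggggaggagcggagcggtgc
HMMR: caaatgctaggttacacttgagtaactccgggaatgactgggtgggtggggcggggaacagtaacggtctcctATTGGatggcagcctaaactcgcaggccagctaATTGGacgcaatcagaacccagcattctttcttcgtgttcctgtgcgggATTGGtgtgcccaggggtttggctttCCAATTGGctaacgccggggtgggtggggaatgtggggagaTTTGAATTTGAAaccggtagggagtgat
KIF20A: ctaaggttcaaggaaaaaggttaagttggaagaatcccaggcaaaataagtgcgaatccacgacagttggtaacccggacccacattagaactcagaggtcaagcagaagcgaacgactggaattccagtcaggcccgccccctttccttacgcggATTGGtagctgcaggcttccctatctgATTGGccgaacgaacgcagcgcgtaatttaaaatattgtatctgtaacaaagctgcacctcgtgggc
In *PLK1* a single TTTGAA began 29 bases before the start and a single CCAAT 73 bases before it. *HMMR* held TTTGAA at 28 and at 22 bases before the start, side by side, and 5 matches to CCAAT, of which a forward and a reverse match overlap. *KIF20A* held 2 reverse matches to CCAAT, at 94 and 67 bases, and no TTTGAA among these letters.

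Of 36 tested genes of DNA replication and the G1/S transition, 4 rose and 0 fell, against 0.409% of all genes called higher. The median log2 fold change was 0.17, with 35 of 36 values above 0, and the summed level went from 6058 to 6235 CPM untreated to 6642 to 6741 CPM after peroxide. No member was lower at an unadjusted p under 0.05, or by DESeq2's test, which called 10 higher. The number of rises was 24 without both outlying WT libraries and 1 to 3 when 1 of the 6 libraries was left out, lowest without SxxS untreated replicate 2 or hydrogen peroxide replicate 3.

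*E2F2*, a transcription factor that activates genes of S phase, had 30.6, 30.4 and 34.1 CPM untreated and 43.4, 39.1 and 41.4 CPM after peroxide. Its log2 fold change was 0.38 (SE 0.07, edgeR adjusted p = 0.00301), and the call held in every alternative run for it. *CHAF1B*, a subunit of the chromatin assembly factor that deposits histones on new DNA, had 62.0, 59.3 and 59.3 CPM untreated and 72.6, 68.1 and 71.8 CPM treated. The groups did not overlap, and the log2 fold change was 0.23 (edgeR adjusted p = 0.00701). *CDC6*, which loads the replicative helicase, had a log2 fold change of 0.21 (edgeR adjusted p = 0.0271), and *SLBP*, which binds the stem-loop of histone mRNAs, one of 0.17 (edgeR adjusted p = 0.0441). The latter calls were lost in 7 of 18 and 11 of 18 alternatives. *PCNA*, the sliding clamp of DNA polymerases, was named after its values were seen, with 217, 214 and 212 CPM untreated against 247, 261 and 261 CPM and a log2 fold change of 0.26 that was not called (edgeR adjusted p = 0.124). The 23 tested histone genes of the replication-dependent kind had 0 calls and a median of -0.04, with 2 higher at an unadjusted p under 0.05 and 0 called by DESeq2's test. The highest of them in level, *H2BC12*, had 46.1, 44.2 and 51.7 CPM untreated and 53.4, 45.9 and 48.3 CPM treated. One histone gene was called higher without both outlying WT libraries.

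Targets of p53, the transcription factor that answers DNA damage and that large T antigen binds in this line, included 5 rises and 0 falls among 24 tested genes, against 0.409% of all tested genes called higher. The median log2 fold change was 0.21, with 21 of 24 values above 0, and the summed level was 893 to 935 CPM untreated and 954 to 1023 CPM treated. DESeq2's test also called 5 higher and 0 lower, and no member was lower at an unadjusted p under 0.05. Leaving out both outlying WT libraries gave 9 rises and 1 fall. Leaving out 1 of the 6 libraries gave 2 to 5 rises, 2 without SxxS untreated replicate 1, untreated replicate 2 or hydrogen peroxide replicate 3. *CDKN1A* encodes p21, the inhibitor of cyclin-dependent kinases. It was low, with 6.74, 5.75 and 6.27 CPM untreated and 9.44, 11.1 and 12.7 CPM treated. Every treated library was above every untreated one, with a log2 fold change of 0.83 (SE 0.13, edgeR adjusted p = 0.000496), a call kept in every alternative run for it. *PHLDA3*, an inhibitor of AKT signalling, had 8.16, 7.90 and 8.79 CPM untreated and 12.5, 13.2 and 16.6 CPM treated, a log2 fold change of 0.77 (SE 0.19, edgeR adjusted p = 0.0377). That call was lost in 6 of 17 alternatives, and the gene shares exon sequence with an annotated gene on the same strand. *BTG2*, an antiproliferative gene, and *AEN*, a nuclease of apoptosis, had log2 fold changes of 0.37 and 0.30 (edgeR adjusted p = 0.0126 and 0.0155), each lost in 5 of 18 alternatives.

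*SESN2* belongs to the lists of both p53 and ATF4 targets and encodes sestrin 2, which restrains mTORC1. It had 51.1, 53.9 and 51.3 CPM untreated and 66.7, 69.7 and 69.2 CPM after peroxide. The spread within each group was small beside the difference, with a log2 fold change of 0.40 (SE 0.05, edgeR adjusted p = 3.78e-05) and a call in every alternative run for it.

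Among 27 tested ATF4 targets, genes of amino acid supply and of the integrated stress response, 8 rose and 0 fell, against 0.409% of all tested genes called higher. The median log2 fold change was 0.21, with 24 of 27 values above 0. The summed level was 3113 to 3209 CPM untreated and 3682 to 3728 CPM after peroxide. No member was lower at an unadjusted p under 0.05, and DESeq2's test called 11 higher and 0 lower. There were 15 rises without both outlying WT libraries and 5 or 6 without 1 of the 6 libraries, 5 without each of them but SxxS hydrogen peroxide replicate 1, where there were 6.

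*SLC6A9*, a glycine transporter, was the largest rise among genes above the level set for naming. It had 5.02, 5.87 and 5.78 CPM untreated and 9.83, 11.1 and 10.5 CPM after peroxide, with no treated library near the untreated range. The log2 fold change was 0.91 (SE 0.12, edgeR adjusted p = 3.04e-05). *ASNS*, asparagine synthetase, had 152, 150.1 and 158 CPM untreated and 191, 198 and 182 CPM treated. Its log2 fold change was 0.31 (SE 0.05, edgeR adjusted p = 0.00249), and it shares exon sequence with a read-through gene on the same strand, which can take some of its reads; with an offset for GC content its call was lost (edgeR adjusted p = 0.083). *CHAC1*, which degrades glutathione, was low, with 1.51, 1.39 and 1.12 CPM untreated and 2.35, 2.50 and 1.76 CPM treated. Its log2 fold change of 0.70 (SE 0.17, edgeR adjusted p = 0.0398) was lost as a call in 7 of 18 alternatives. *PSAT1*, of serine synthesis, had 263, 275 and 265 CPM untreated and 325, 343 and 322 CPM treated (log2 fold change 0.30, edgeR adjusted p = 0.0148), a call lost in 5 of 18 alternatives.

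The other called members had small folds. *MTHFD2*, a mitochondrial enzyme of one-carbon metabolism, had a log2 fold change of 0.25 (edgeR adjusted p = 0.0306) that was lost in 8 of 17 alternatives, among them those without each of the 6 libraries. *GPT2*, a mitochondrial alanine transaminase, had 0.24 (edgeR adjusted p = 0.00621) and *ATF3*, a stress-induced transcription factor, 0.29 (0.00881), lost in 2 of 18 and 3 of 18. *SLC1A4*, a transporter of neutral amino acids outside the list, was among the 12 largest rises, from 4.34, 4.18 and 4.68 CPM to 7.26, 7.05 and 6.91 CPM (log2 fold change 0.69, edgeR adjusted p = 6.41e-05). *ATF4* mRNA itself, named after its values were seen, had 514, 521 and 497 CPM untreated and 672, 700.2 and 709 CPM treated, with groups apart but no call (log2 fold change 0.44, SE 0.12, edgeR adjusted p = 0.0858). *SLC7A11*, the cystine importer that both ATF4 and NRF2 are known to induce, was likewise named afterwards. It had 15.0, 16.5 and 15.3 CPM untreated and 28.4, 32.9 and 24.9 CPM treated, a log2 fold change of 0.88 that did not pass (SE 0.24, edgeR adjusted p = 0.0682). Of 20 aminoacyl-tRNA synthetases, *AARS1* rose (0.26, edgeR adjusted p = 0.00488) and *VARS1*, for valine, fell (-0.32, edgeR adjusted p = 0.00249). Of all tested genes, 0.409% were called higher and 0.609% lower. The list had 7 calls higher and 3 lower without both outlying WT libraries, a fit that called 653 higher and 822 lower of 22486 genes.

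A CARE element, the composite site that ATF4 and C/EBP proteins are known to share, was searched as TGATGNAA on both strands. It is shown for *ASNS* and *CHAC1*, picked from the called ATF4 targets whose windows held it. Of the 8 ATF4 targets that rose, 7 had windows, 9 in all, and 3 of the 9 (*ASNS*, *ATF3* and *CHAC1*) held the motif, against 3.62% of all 35116 windows. Of the 23 windows of 14 members not called, 2 held it. The 250 bases before the start are given 5′ to 3′ on the gene's strand with the match in capitals, at chr7:97872409-97872658 on the minus strand (*ASNS*) and chr15:40953221-40953470 on the plus strand (*CHAC1*).
ASNS: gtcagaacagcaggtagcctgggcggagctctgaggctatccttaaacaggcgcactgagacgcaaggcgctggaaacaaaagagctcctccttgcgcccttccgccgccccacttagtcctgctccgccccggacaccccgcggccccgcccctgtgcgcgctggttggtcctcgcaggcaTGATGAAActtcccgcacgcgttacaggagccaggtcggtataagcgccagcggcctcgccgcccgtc
CHAC1: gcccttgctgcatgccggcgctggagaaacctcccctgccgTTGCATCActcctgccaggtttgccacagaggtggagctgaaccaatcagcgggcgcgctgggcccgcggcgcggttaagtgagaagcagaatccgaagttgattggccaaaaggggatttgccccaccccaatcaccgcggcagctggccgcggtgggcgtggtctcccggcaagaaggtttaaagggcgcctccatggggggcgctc
The match began 68 bases before the start in *ASNS*, and 209 bases before it in *CHAC1*, where it was on the reverse strand.

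**Figure D2:**
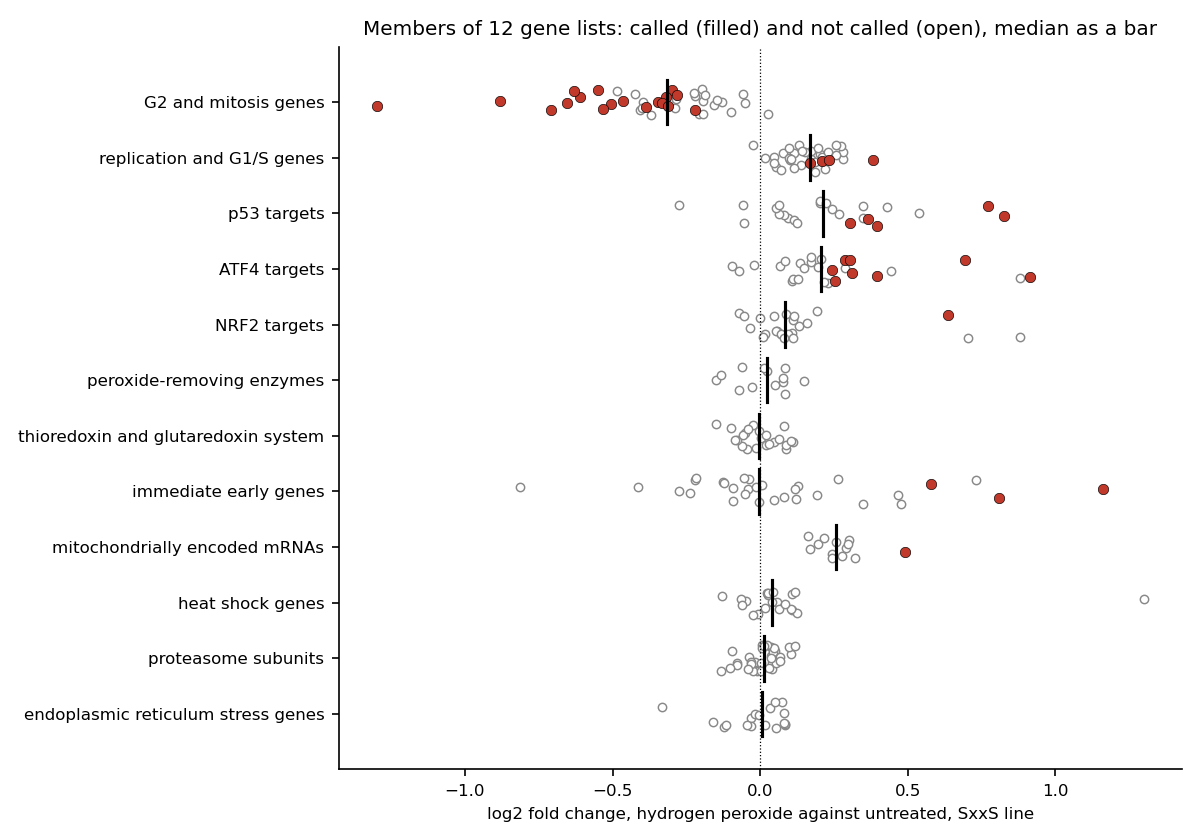
Log2 fold change after hydrogen peroxide in the SxxS line (x axis) of each tested member of 12 gene lists, with filled red points for called genes, open points for the others and a vertical bar at the list's median. All G2 and mitosis genes but 1 lie left of 0, with 18 filled points, while the lists of peroxide-removing enzymes and of the thioredoxin and glutaredoxin system centre on 0 without a filled point.

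Few genes of oxidant defence were called. Of 24 tested NRF2 targets, the only call was *HMOX1*, heme oxygenase 1, which rose, against 0.409% of all tested genes called higher. The median log2 fold change was 0.08, with 20 of 24 values above 0, and the highest, 0.88, was not called. At an unadjusted p under 0.05, 4 members were higher and 0 lower, and DESeq2's test called 2 higher and 0 lower. *HMOX1* had 33.97, 35.1 and 36.8 CPM untreated and 53.8, 54.2 and 56.6 CPM after peroxide. The groups were tight and apart, with a log2 fold change of 0.64 (SE 0.11, edgeR adjusted p = 0.00152), and the call held in every alternative run for it. *TKT* and *FTH1*, the members with the highest levels, had log2 fold changes of 0.01 and 0.02, neither called. There were 3 NRF2 targets called higher without both outlying WT libraries.

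Of 13 tested enzymes that remove peroxide or superoxide, edgeR's test called 0, with 0 higher and 1 lower at an unadjusted p under 0.05 and 0 by DESeq2's test. *PRDX1*, the most abundant peroxiredoxin here by counts, had 843, 843 and 840.4 CPM untreated and 869, 879 and 918 CPM treated, a log2 fold change of 0.08 (SE 0.11) that was not called. *GPX4*, which reduces lipid peroxides, had 364, 370.3 and 388 CPM untreated and 366, 341 and 361 CPM treated, in overlapping groups. Of 23 tested genes of the thioredoxin and glutaredoxin system, the family to which TXNL1 belongs, 0 were called by edgeR or DESeq2, and 0 had an unadjusted p under 0.05. Their log2 fold changes ran from -0.15 to 0.11 with a median of -0.01. Without both outlying WT libraries 1 of the 23 was called lower. Among 33 proteasome subunits 0 were called, with 1 lower at an unadjusted p under 0.05 and 0 by DESeq2's test, and the values ran from -0.13 to 0.12. *PSMD2*, a large scaffold subunit of the regulatory particle, had 299, 313 and 319 CPM untreated and 293, 281 and 293 CPM treated (log2 fold change -0.10, edgeR adjusted p = 0.341).

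The remaining lists had few or no calls. Of 31 immediate early genes, 3 rose and 0 fell, against 0.409% of all tested genes called higher, and the median was 0.00. *FOS*, a component of the AP-1 transcription factor, was very low, at 0.557, 0.697 and 0.691 CPM untreated and 1.02, 2.36 and 1.09 CPM treated, and peroxide replicate 2 was above the other treated libraries. Its log2 fold change of 1.16 (SE 0.25, edgeR adjusted p = 0.0154) was 0.72 without that library, where the call was lost, as it was in 4 of 18 alternatives in all. *FOSB*, its relative, had a log2 fold change of 0.58 (edgeR adjusted p = 0.0312) lost in 6 of 18 alternatives, and *DUSP5*, a phosphatase of ERK, 0.81 (edgeR adjusted p = 0.00249). Without SxxS hydrogen peroxide replicate 2 or untreated replicate 1, 1 of the 31 was called.

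The 13 mRNAs encoded by the mitochondrial genome all had log2 fold changes above 0, from 0.16 to 0.49. Of these 1 was called higher, against 0.409% of all tested genes. *MT-CO1*, of respiratory complex IV, had 1287, 1373 and 1254 CPM untreated and 1856, 1992 and 1647 CPM treated, a log2 fold change of 0.49 (SE 0.11, edgeR adjusted p = 0.0293) that was lost in 6 of 18 alternatives. The summed level of the 13 mRNAs was 5549 to 6249 CPM untreated and 6665 to 7886 CPM treated. Reads on all mitochondrial genes took 0.662% to 0.749% of counts in the untreated and 0.785% to 0.940% in the peroxide libraries. The part of the overall mitochondrial share in the rise of *MT-CO1* was not tested. Of 23 cholesterol synthesis genes, *LSS*, lanosterol synthase, fell by 0.27 on the log2 scale (edgeR adjusted p = 0.00468) and 0 rose. It was the only one called, against 0.609% of all tested genes called lower. Of 30 tested genes of DNA repair, *EXO1*, an exonuclease of mismatch and break repair, rose from 115, 108 and 115 CPM to 140, 153 and 135 CPM, a log2 fold change of 0.34 (edgeR adjusted p = 0.0345) lost in 8 of 17 alternatives. *EXO1* was the only repair gene called by edgeR, against 0.409% of all tested genes called higher, and DESeq2's test called 2 repair genes higher.

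No gene was called by edgeR in the lists of 21 heat shock genes, 18 endoplasmic reticulum stress genes, 5 metallothionein and zinc exporter genes, 29 hypoxia and glycolysis genes and 33 cytosolic ribosomal proteins. At an unadjusted p under 0.05 these lists had 2, 0, 0, 4 and 0 genes, and DESeq2's test called 1, 0, 0, 1 and 0. *HSPA8*, the constitutive heat shock cognate, had 3969, 3829 and 3930 CPM untreated and 3841, 3951 and 4070 CPM treated, and *GAPDH* had 2360, 2394 and 2493 against 2381, 2381 and 2523 CPM, in overlapping groups. Without both outlying WT libraries the endoplasmic reticulum list had 3 genes called lower, the heat shock list 1 higher and the glycolysis list 1 in each direction.

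Other large rises belong to no list. *TEX19*, a germ-cell gene that restrains retrotransposons, had 1.53, 1.595 and 1.53 CPM untreated and 2.86, 2.43 and 2.83 CPM treated (log2 fold change 0.80, edgeR adjusted p = 0.00135), a call held in every alternative run for it. *ULBP1*, a stress-induced ligand of the natural killer receptor NKG2D, had 2.70, 2.51 and 2.603 CPM untreated and 3.44, 4.56 and 4.45 CPM treated (0.68, edgeR adjusted p = 0.0112). *NEK8*, a kinase of primary cilia, had a log2 fold change of 0.72 (edgeR adjusted p = 0.00581), *INSM1*, a transcription factor of neuroendocrine cells, 0.76 (0.0441) and *ERICH5* 0.71 (0.0332). The calls of *INSM1* and *ERICH5* were lost in 6 of 18 and 7 of 18 alternatives, that of *ULBP1* in 3 of 18 and that of *NEK8* without SxxS untreated replicate 2.

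The falls held more noncoding RNA than the rises. Of 137 falls 41 (29.9%) were annotated as lncRNA and 88 as protein-coding, against 7 lncRNAs and 82 protein-coding genes among 92 rises, while 21.9% of all tested genes were lncRNAs. Exons of 93 of the 137 falls overlap another gene in GENCODE release 44, against 41 of the 92 rises and 56.9% of all tested genes. Among genes without such overlap, adjusted over those genes alone, 91 were called, 49 higher and 42 lower. *CDKN2B-AS1*, a long noncoding RNA of the INK4 locus (chromosome 9, 21994139 to 22128103, plus strand), overlaps 4 annotated genes on its strand and *CDKN2A* on the other. It had 23.2, 25.6 and 19.0 CPM untreated and 14.01, 9.498 and 7.64 CPM treated. *GARIN5A*, a gene of the Golgi (chromosome 19, 50466785 to 50476848, minus strand), had 6.96, 8.70 and 5.69 CPM untreated and 4.18, 2.71 and 2.99 CPM treated. Their log2 fold changes were -1.13 (SE 0.22, edgeR adjusted p = 0.00608) and -1.12 (SE 0.24, edgeR adjusted p = 0.0131). The call of each was lost in 4 of 17 alternatives, in both cases without SxxS untreated replicate 2, peroxide replicate 2 or peroxide replicate 3.

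*RPS2P55*, a processed pseudogene of the ribosomal protein gene *RPS2*, had the largest fold among named falls and the widest spread. Its untreated libraries had 12.9, 38.3 and 13.0 CPM and its treated libraries 5.49, 1.58 and 1.81 CPM, a log2 fold change of -2.87 (SE 0.66, edgeR adjusted p = 0.0255) lost in 5 of 18 alternatives. Its parent *RPS2* was not called (log2 fold change -0.06), and reads can be split between the copies. *MADCAM1-AS1*, *PGLS-DT* and *SLC9A3R1-AS1*, noncoding RNAs whose exons overlap neighbouring genes on the opposite strand, had log2 fold changes of -1.30, -1.07 and -0.996 (edgeR adjusted p = 0.0362, 0.0240 and 0.00468), lost in 6, 3 and 1 of 17 alternatives. *MIR3615*, a microRNA locus that overlaps *SLC9A3R1-AS1* on the opposite strand and *NHERF1* on its own, had -0.98 (edgeR adjusted p = 0.00500), lost with an offset for GC content (-0.71, edgeR adjusted p = 0.0749). In *RPS2P55*, *MADCAM1-AS1*, *CDKN2B-AS1*, *GARIN5A*, *PGLS-DT* and *SLC9A3R1-AS1* alike, peroxide replicate 1 was the highest treated library and untreated replicate 2 the highest untreated one. *AMH*, anti-Müllerian hormone, had 5.23, 5.75 and 4.77 CPM untreated and 3.49, 2.73 and 2.76 CPM treated (log2 fold change -0.82, edgeR adjusted p = 0.00117), a call held in every alternative run for it, and *PROB1* had -0.84 (edgeR adjusted p = 0.0313), lost in 8 of 18.

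The same exposure in the other 3 lines, each against its own untreated cells, shows how far these changes recur. Of the 92 rises, 90 had a log2 fold change above 0 in vector cells, 91 in D162R R234D and 91 in WT cells, where 50.1%, 49.9% and 51.1% of all tested genes did. They were called higher in 49, 39 and 54 cases, against 0.712%, 0.503% and 5.8% of all tested genes. Of the 137 falls, 133 were below 0 in vector, 111 in D162R R234D and 90 in WT cells, and 70, 58 and 63 were called lower (0.636%, 0.525% and 2.26% of all tested genes). In WT cells 28 of the 137 falls were called higher instead, while in vector and D162R R234D cells 0 were. Without WT hydrogen peroxide replicate 2, 90 of the 92 rises and 88 of the 137 falls had the same direction in WT cells, with 51 and 57 called that way and 23 of the falls called higher. The shared rises were 53.3% of the SxxS list and 30.6% of the vector list, and the shared falls 51.1% and 49.0%. In all 4 lines, 26 genes were called higher and 47 lower, and 54 of the 229 were called in SxxS cells alone, which does not show that the other lines differ in them.

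**Figure D3:**
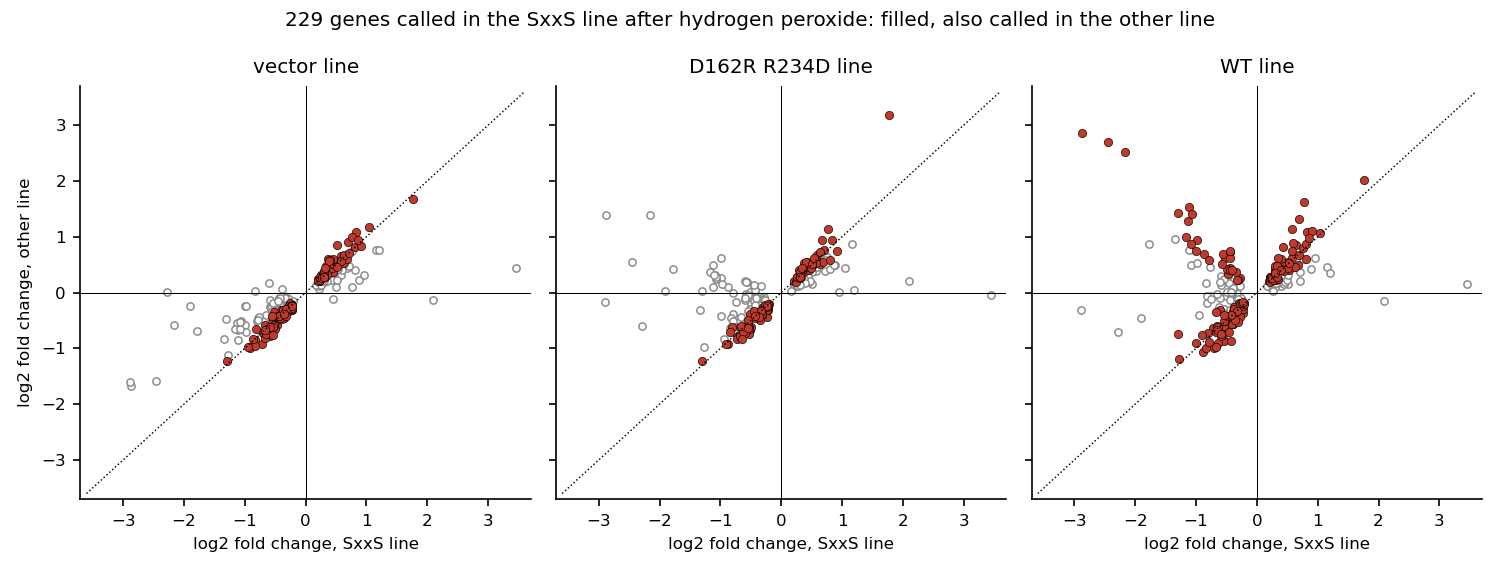
Log2 fold change after hydrogen peroxide of the 229 genes called in the SxxS line (x axis) against the same change in vector, D162R R234D or WT cells (y axis), with filled points for genes also called there and a dotted line of equal change. Of the 137 falls, 133 are below 0 in the vector line and 90 in the WT line, where a branch of 28 called genes lies at the upper left.

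Across 15604 genes with a mean log2 CPM above 0, Pearson's r between the responses of SxxS and vector cells was 0.56, and that with D162R R234D cells 0.44. With WT cells, whose response includes the outlying replicate 2, it was 0.11, and 0.17 without that library. These are correlations across genes, which are not independent replicates. G2 and mitosis genes had a median log2 fold change of -0.32 in vector cells, -0.37 in D162R R234D and -0.42 in WT cells (-0.38 without WT hydrogen peroxide replicate 2), beside -0.31 in SxxS cells. Of the 40 genes, 18, 17 and 28 were called lower in those lines (23 in WT without that library) and 0 higher. Of all tested genes, 0.636%, 0.525% and 2.26% were called lower there (0.956% in WT without that library). *KIF20A* had log2 fold changes of -0.95, -0.92 and -1.07 there, close to the -0.88 of SxxS cells. ATF4 targets had medians of 0.22, 0.19 and 0.31 with 8, 7 and 15 rises, and p53 targets medians of 0.30, 0.19 and 0.26 with 7, 5 and 8 rises. One p53 target, *CCNG1*, was called lower in WT cells. Without WT hydrogen peroxide replicate 2 the rises there numbered 12 and 7, with 0 p53 targets lower. Immediate early genes had medians of 0.18, 0.26 and 0.39 in vector, D162R R234D and WT cells, beside 0.00 in SxxS cells, with 3, 5 and 14 rises (8 in WT cells without that library, median 0.32). Beside the rises of these lists, 0.712%, 0.503% and 5.8% of all tested genes were called higher in vector, D162R R234D and WT cells. In WT cells without that library the share was 2.08%.

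**Figure D4:**
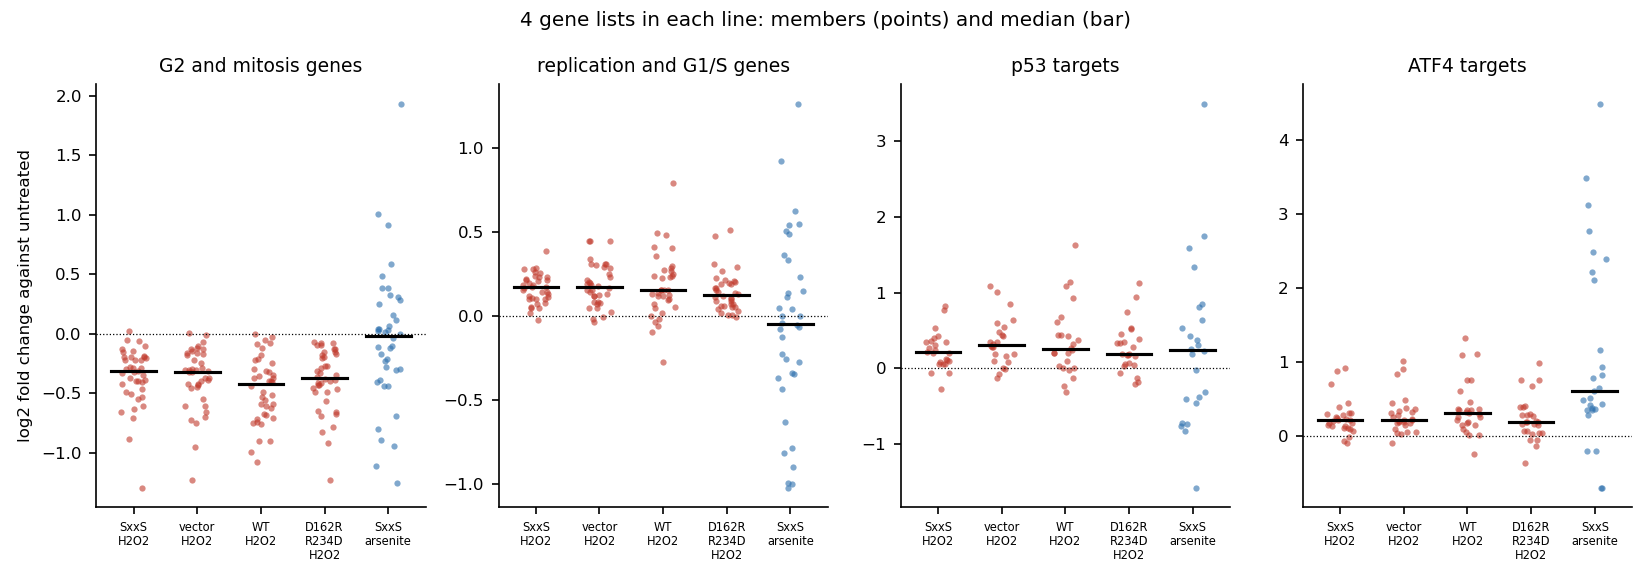
Log2 fold change against untreated cells (y axis, a separate scale in each panel) of the members of 4 gene lists after hydrogen peroxide in each of the 4 lines (red) and after arsenite in the SxxS line (blue), with the median as a bar. The median of G2 and mitosis genes is between -0.42 and -0.31 in the 4 lines after peroxide and -0.02 after arsenite.

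Whether the response itself differed was tested as an interaction of line and treatment. Between SxxS and vector cells, the lines with SxxS TXNL1 and with no TXNL1, 0 of 22486 genes (0%) were called by edgeR, with 609 at an unadjusted p under 0.05, and 0 by DESeq2. Between SxxS and D162R R234D cells, 0 genes (0%) were called by edgeR, with 699 at an unadjusted p under 0.05, and 10 by DESeq2, all with a lower value in SxxS cells. Without both outlying WT libraries these tests called 0 and 14. A test that calls nothing does not show that the responses are equal, and these interactions carry the error of 4 groups. *PLK1* fell by 0.65 on the log2 scale in SxxS cells, and its change was -0.75 in vector and -0.82 in D162R R234D cells. *CDKN1A* had 1.08 in vector and 0.94 in D162R R234D cells beside 0.83.

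Between SxxS and WT cells, which differ in the cysteines of TXNL1 and are also separate lines, 337 genes (1.5%) were called, 4 with a higher and 333 with a lower log2 fold change in SxxS cells. The number was 223 (3 and 220) without WT hydrogen peroxide replicate 2, 533 without both outlying WT libraries and 56 with only the 12 libraries compared in the fit. It was 133 with an offset for GC content. The part of the variant and that of the line cannot be told apart. *GARIN5A* had 2.46, 2.61 and 2.73 CPM in untreated and 6.90, 8.06 and 7.73 CPM in peroxide-treated WT cells, the opposite order to that in SxxS cells. The untreated WT libraries were below all untreated SxxS libraries. The difference in log2 fold change was -2.66 (edgeR adjusted p = 9.45e-05). *CDKN2B-AS1* likewise had 11.2, 8.19 and 10.1 CPM in untreated and 19.6, 29.3 and 23.0 CPM in treated WT cells, with a difference of -2.41 (edgeR adjusted p = 9.45e-05).

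Of all listed genes, *JUN*, *JUNB* and *JUND*, which encode AP-1 subunits and were singled out after their values were seen, were the ones called in this interaction. They are 3 of 31 tested immediate early genes, and no member of another list was called, against 1.5% of all tested genes. The log2 fold changes of *JUN*, *JUNB* and *JUND* were -0.01, 0.13 and -0.41 in SxxS cells, none called, and 0.58, 1.09 and 1.16 in WT cells, all called. The differences were -0.59, -0.97 and -1.57 (edgeR adjusted p = 0.00168, 0.0167 and 0.00187). The call of *JUNB* was lost without WT hydrogen peroxide replicate 2 (difference -0.76, edgeR adjusted p = 0.0708) and with an offset for GC content (-0.52, edgeR adjusted p = 0.141). With that offset *JUN* and *JUND* had differences of -0.47 and -0.88 (edgeR adjusted p = 0.0462 and 0.0358).

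*CBR1-AS1*, *ZNF503* and *ZNF219*, a noncoding RNA and a pair of zinc finger genes, complete the 5 smallest adjusted p-values. *CBR1-AS1*, antisense to a carbonyl reductase gene, had 21.6, 23.4 and 21.1 CPM untreated and 17.7, 15.6 and 15.4 CPM treated in SxxS cells, against 15.1, 14.5 and 14.8 and then 22.2, 27.9 and 23.1 CPM in WT cells. Untreated WT libraries had about the level of treated SxxS libraries, and the difference in log2 fold change was -1.16 (edgeR adjusted p = 3.45e-05). In *ZNF503* and *ZNF219* the difference was -0.95 and -1.14 (edgeR adjusted p = 0.000167 and 0.000168). Without WT hydrogen peroxide replicate 2 the differences of the 5 genes ran from -2.61 to -0.91. The call of *ZNF219* was lost with an offset for GC content, where its difference was -0.45. In vector cells *GARIN5A* had 4.40, 8.25 and 7.19 CPM untreated and 5.62, 3.16 and 3.67 CPM treated, with overlapping groups and replicate 1 against the order of the others. Its log2 fold change was -0.67 there and 0.50 in D162R R234D cells, neither called. *KIF20A*, by contrast, had 121, 116 and 119 CPM in untreated and 60.2, 47.0 and 61.9 CPM in treated WT cells.

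**Figure D5:**
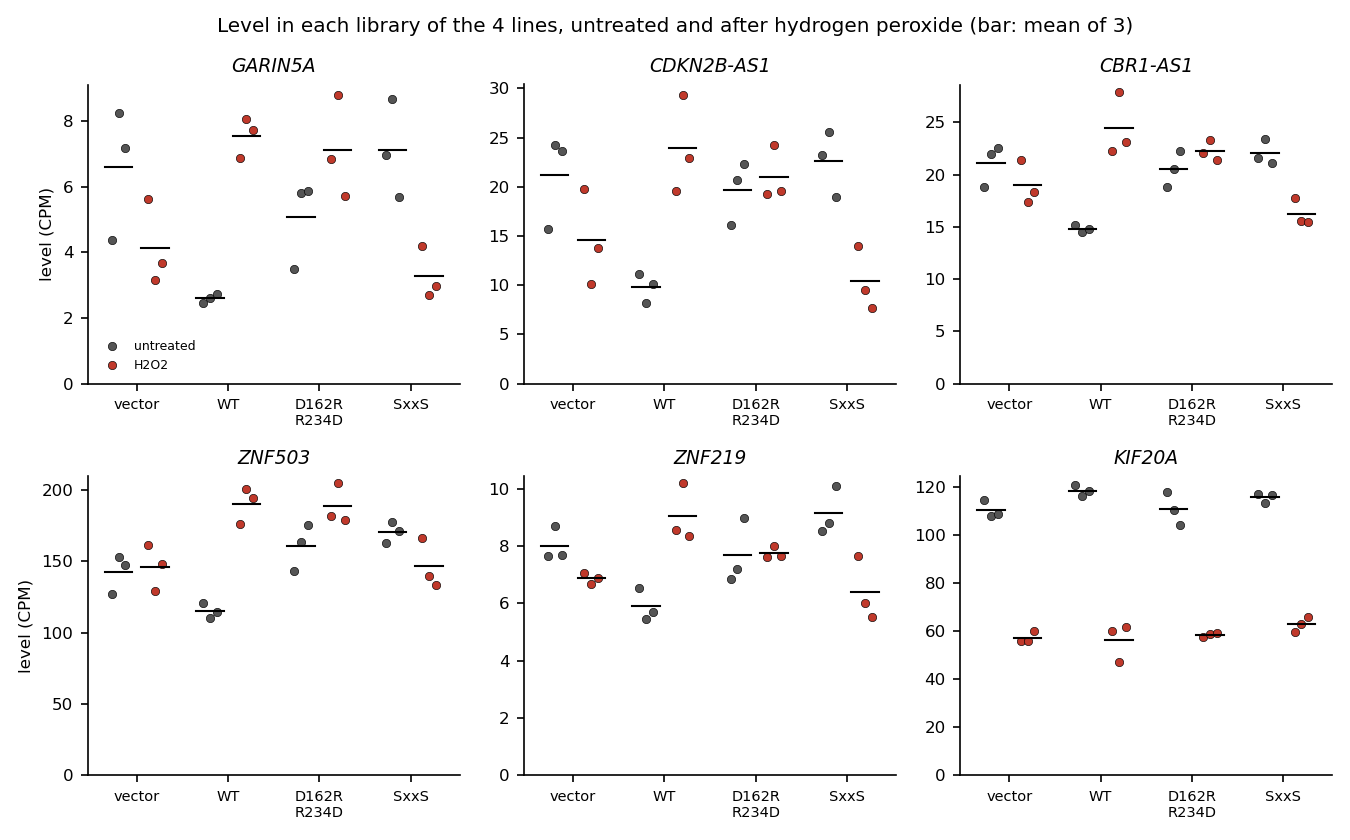
Level in CPM (linear axis from 0) in each library of the 4 lines, untreated (grey) and after hydrogen peroxide (red), with a bar at the mean of 3, for the 5 genes with the smallest adjusted p for SxxS against WT and for *KIF20A*. In *GARIN5A* the untreated WT libraries sit between 2.46 and 2.73 and the untreated SxxS libraries between 5.69 and 8.70, while *KIF20A* is lower after peroxide in every line.

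Arsenite, the other oxidant, gave a much larger response in the same line, and since both responses share the untreated SxxS libraries they are set side by side and the oxidants compared directly. Peroxide and arsenite libraries differed in 10202 genes (45.4%), 4918 higher (21.9%) and 5284 lower (23.5%) with peroxide. Of the 92 peroxide rises, 70 differed between the oxidants, 44 with the higher level under peroxide and 26 with the higher level under arsenite. Of the 137 falls, 115 differed, and 106 of these had the lower level under peroxide. Rises and falls were chosen by these same peroxide libraries. That choice by itself favours a higher peroxide level in the rises and a lower one in the falls. Against untreated cells, arsenite called 47 of the 92 higher and 34 lower (22.1% and 21.5% of all tested genes), and 36 of the 137 higher and 29 lower.

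G2 and mitosis genes had a median of -0.02 with arsenite, 12 higher and 12 lower, against 22.1% and 21.5% of all tested genes. In the direct test 21 of the 40 had a lower level under peroxide than under arsenite and 9 a higher one. Of all tested genes, 23.5% were lower and 21.9% higher under peroxide, so the 9 are near that share. *PLK1* had 261, 265 and 258 CPM under arsenite, near the untreated level and above all peroxide libraries, with a direct log2 difference of -0.70 (edgeR adjusted p = 1.05e-12). *CCNB1* was lower still under arsenite, at 175, 191 and 178 CPM. *E2F2*, which rose with peroxide, had 16.8, 16.2 and 14.7 CPM under arsenite, below the untreated level, and the direct difference was 1.38 (edgeR adjusted p = 5.78e-16). *PHLDA3* also went apart, at 4.81, 5.53 and 4.70 CPM under arsenite, a direct difference of 1.49 (edgeR adjusted p = 1.65e-07).

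Of the 21 heat shock genes, 15 had a lower level under peroxide than under arsenite in the direct test and 2 a higher one, and of the 27 ATF4 targets 17 and 3. Of all tested genes, 23.5% were lower and 21.9% higher under peroxide in that test. The 18 endoplasmic reticulum stress genes had 4 lower, near the share of all tested genes, and 6 higher under peroxide. *ATF3* had 19.9, 19.3 and 19.6 CPM untreated, 23.4, 23.8 and 24.5 CPM with peroxide and 441, 449 and 435 CPM with arsenite, a direct difference of -4.21 (edgeR adjusted p = 4.80e-28). *BAG3*, a cochaperone of HSP70, had 61.3, 66.0 and 67.3 CPM untreated, 64.8, 70.4 and 63.1 CPM with peroxide and 959, 959 and 872 CPM with arsenite (direct difference -3.81, edgeR adjusted p = 4.80e-28). *SESN2* had 599, 589 and 562 CPM and *HMOX1* 166, 166 and 158 CPM under arsenite. For *CDKN1A*, in contrast, the oxidants gave 9.44 to 12.7 and 11.1 to 11.5 CPM, overlapping ranges, with a direct difference of -0.03 (edgeR adjusted p = 0.876), and for *SLC6A9* the direct difference was 0.14 (edgeR adjusted p = 0.352). The doses of the oxidants differ, so sizes of the responses are not comparable dose for dose.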

How the data were processed

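RNA-seq was carried out on 36 libraries in 12 groups of 3, of which the untreated and hydrogen peroxide libraries of the SxxS line make the comparison reported. The authors deposited 1 table of raw read counts per gene for 61587 genes, made with QuasR's qAlign against the GRCh38 primary assembly from paired reads of a kit the labels call strand-specific. Whether counting used strand, how mates and reads on several genes were counted, and the annotation release are not given in the sources used here. Even counts are in excess, so counts halved and rounded were an alternative.

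Groups came from the sample labels. As in the study's filter, the 22486 genes whose counts summed to 10 or more across the untreated vector group of 3 were kept. One mean per group was fitted over all 36 libraries with edgeR 4.0.16 in R 4.3.3 (TMM scaling, robust quasi-likelihood test, Benjamini-Hochberg adjustment over all tested genes, threshold 0.05), and differences between responses were contrasts of that fit. The study's methods use DESeq2, which was run as an alternative (version 1.42.0). Library totals ran from 42072410 to 174119002 counts, and the biological coefficient of variation was 12.4%. Levels are CPM on TMM-scaled library sizes. The fit was tested on simulated data with 200 genes changed in the SxxS hydrogen peroxide group. At a log2 fold of 0.5, the test of the response called 47.5% of them and the interaction with vector 17.5%. At a log2 fold of 1 the shares were 90.5% and 70%.

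Named genes were *TXNL1*, the 12 largest rises and falls among called genes with a mean of at least 100 scaled counts, called list members (the 4 with the smallest p per direction where there were more than 8, the pair with the highest levels where there were few), and the 5 genes with the smallest adjusted p of an interaction. The members and lists were chosen with earlier results of these data known. Gene positions and exon overlaps are from GENCODE release 44 (61369 genes matched), promoter windows from RefSeq on GRCh38.p14. Alternatives covered scaling, filter, test, libraries in the fit, replicate number as a block, GC content, halved counts and each library left out. The exon-overlap alternative and the fits without WT hydrogen peroxide replicate 2 for the WT response and its listed genes were added after seeing the data.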

Additional observations from a re-analysis of the deposited data

Results flagged for a closer look

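The number of genes whose response to hydrogen peroxide differed between SxxS and WT cells, 337 by edgeR's interaction test, is given because the same contrast differed between 2 lines. The WT hydrogen peroxide group holds the outlying replicate 2, and the number was 223 without it. Of the genes named for this test, the difference in log2 fold change (SxxS minus WT) was -1.16 for *CBR1-AS1*, -2.66 for *GARIN5A*, -2.41 for *CDKN2B-AS1*, -0.95 for *ZNF503* and -1.14 for *ZNF219*. Without that library the values were -1.06, -2.61, -2.25, -0.91 and -1.04. In untreated cells each of the 5 had a higher level in all 3 SxxS libraries than in all 3 WT libraries.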

How the results depend on the processing

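The number of genes called in the SxxS response (229) was 444 by DESeq2's test, 74 with no filter, 1621 with only the 6 libraries, 1475 without both outlying WT libraries, 91 among genes without exon overlap, and 82 to 175 with 1 library left out. The interaction with WT (337) had 506 calls by DESeq2's test, 56 with only the groups compared, 533 without both outlying WT libraries, 133 with the GC offset, 123 with the GC offset and the replicate block, 116 without exon overlap and 176 to 590 with 1 library left out. The lowest numbers were without WT untreated replicate 2 (176) and SxxS hydrogen peroxide replicate 3 (182), and the highest without WT hydrogen peroxide replicate 1 (590) or 3 (537). Other numbers were 223 without WT hydrogen peroxide replicate 2, 195 without SxxS untreated replicate 2 and 194 without SxxS hydrogen peroxide replicate 2. The interaction with D162R R234D (0) had 10 calls by DESeq2's test, 1 with no filter, 3 with only the groups compared, 14 without both outlying WT libraries, 1 with halved counts and 0 to 1 with 1 library left out, the 1 without D162R R234D hydrogen peroxide replicate 3. The contrast with arsenite (10202) had 4186 calls without exon overlap, where fewer genes are tested. The interaction with vector had 0 calls in every alternative. Apart from fewer genes tested or fewer libraries, the cause of these shifts was not tested.

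Of 47 named genes called in the response, 15 were called in every alternative run for them and 0 reversed. Without at least 1 library 29 were lost, and 27 were lost in at least 1 other alternative. Only 5 were lost solely by leaving out a library. Some genes that were not called changed sign, with wider ranges for *KDR*, *COL1A1* and *CD68* than for the others given here. With the GC offset the log2 fold change was -0.0045 for *FTH1*, -0.017 for *PDIA6*, -0.0035 for *HSPA8* and 0.057 for *RPL8*, and with the GC offset and replicate block -0.0059, -0.017, -0.0035 and 0.057. With 1 library left out it ran from -0.024 to 0.054 for *FTH1*, -0.023 to 0.021 for *PDIA6*, -0.0049 to 0.037 for *HSPA8*, -0.049 to 0.0086 for *RPL8*, -0.0098 to 0.038 for *TKT*, -0.021 to 0.031 for *GAPDH*, -0.090 to 0.037 for *SLC30A1*, -0.14 to 0.048 for *CD68*, -0.051 to 0.0073 for *ENO1*, -0.25 to 0.086 for *COL1A1*, -0.14 to 0.31 for *KDR*, -0.027 to 0.0030 for *PDIA3*, -0.0073 to 0.12 for *H2BC12* and -0.014 to 0.081 for *PSMB4*.

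Replicate numbers were tested as a block. Deviations of same-numbered untreated and peroxide SxxS libraries correlated weakly, at -0.03, 0.10 and 0.07. Such values do not settle whether equal numbers mark paired cultures. The vector pairs had at most 0.03, the WT pairs 0.38, 0.03 and -0.27, and the D162R R234D pairs 0.31, 0.14 and 0.32, all above 0.1. Libraries of unequal number were compared in the SxxS line alone, so whether numbers pair the D162R R234D libraries was not tested. The block gave 218 calls in the response (206 of the 229 kept), 327 in the interaction with WT and 0 in the others. Peroxide replicate 1 correlated best with untreated replicate 3, and the other libraries with their own number. Low genes, such as *CHAC1* and *FOS*, have few counts behind each level.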
